A study of Mus musculus with 8 samples.

Results

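Chromatin accessibility at the 3 genes of the Vav family (Vav1, Vav2 and Vav3) and at Commd10 was described from ATAC-seq peak lists of mouse bone marrow progenitors. ATAC-seq uses the Tn5 transposase to cut and tag open chromatin, so that a peak marks a stretch where many fragments pile up. The members were chosen by position, as every peak of the 8 lists that overlapped one of the 4 genes or the 50 kb on either side of it (mm10 coordinates, GENCODE genes). This gave 415 peaks, 27 to 75 a library, which merged into 100 of the 123260 regions of the whole series. Of these, 23 lay in the Vav1 window, 28 in the Vav2 window, 33 in the Vav3 window and 16 in the Commd10 window. A region counted as listed in a library when that library had a peak there, and 18 of the 100 (8 of Vav1, 5 of Vav2, 4 of Vav3 and 1 of Commd10) were listed in all 8 libraries, a property of 17.3% of all regions.

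The libraries came from female mice of a mixed 129Sv4/Jae and C57BL/6J background, aged 4.5 months, with about 10000 sorted cells in each reaction. Both populations lack lineage markers and carry c-Kit. LSK+ cells also carry Sca-1 and hold the hematopoietic stem cells, and LSK- cells lack it and are committed progenitors. Libraries of each population, 2 in each of the 4 groups, were made from wild-type (WT) females and from females that had lost both Xist copies in blood cells (XistΔ/Δ). XistΔ/Δ mice carried floxed Xist alleles and the Vav-iCre transgene, a Cre recombinase driven by regulatory sequence of Vav1 whose strain name places the insertion at Commd10. Whether the WT mice carried this transgene is not given in the sources used here. The study's methods call its replicates biological, but neither they nor the labels say that they were separate animals, so the p-values below measure only the spread between libraries.

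Vav proteins are guanine nucleotide exchange factors. When receptor-coupled kinases phosphorylate them, they load small GTPases such as Rac with GTP and so couple receptors to the actin cytoskeleton. Vav1 is used mainly by blood cells, which is why its regulatory sequence is a common driver for blood-wide recombination, whereas Vav2 and Vav3 are used in many tissues. Commd10 encodes a COMM-domain protein of endosomal sorting and enters here as the annotated insertion site. A driver transgene holds its own copy of the Vav1 pieces it was built from, and its reads align to the Vav1 locus, so the question was which pieces of the locus were higher in XistΔ/Δ cells. Reads of the transgene and of the resident Vav1 gene cannot be told apart in these lists.

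The sequences on which the Vav1 results turn are shown first, from the plus strand of the reference genome (RefSeq, GRCm38.p6, the assembly that mm10 names). Positions are given in kb from the Vav1 transcription start site (TSS), with a minus sign for upstream. The last 3 are the Vav1 pieces with the largest genotype differences, all higher in XistΔ/Δ. The first lies next to them and is shown for comparison. Capitals mark matches on either strand to 2 of the 6 short motifs searched, AGGAAGT, a core bound by ETS factors, and TAACNG, a core bound by MYB. The other motifs searched were TGTGGT for RUNX factors, CCGGAAG for ETS factors at promoters, AGATAA for the factor Gata1 and its relatives, and CAGCTG, an E-box that reads the same on both strands. None of the 6 contains another.
Vav1 -3.5 kb (chr17:57275438-57275737): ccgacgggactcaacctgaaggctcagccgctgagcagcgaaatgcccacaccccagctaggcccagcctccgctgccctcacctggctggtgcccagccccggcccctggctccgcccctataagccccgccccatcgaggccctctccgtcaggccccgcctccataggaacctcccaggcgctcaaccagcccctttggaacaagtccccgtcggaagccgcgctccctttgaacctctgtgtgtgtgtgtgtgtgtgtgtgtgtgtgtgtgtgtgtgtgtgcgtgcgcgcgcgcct
Vav1 -2.1 kb (chr17:57276847-57277146): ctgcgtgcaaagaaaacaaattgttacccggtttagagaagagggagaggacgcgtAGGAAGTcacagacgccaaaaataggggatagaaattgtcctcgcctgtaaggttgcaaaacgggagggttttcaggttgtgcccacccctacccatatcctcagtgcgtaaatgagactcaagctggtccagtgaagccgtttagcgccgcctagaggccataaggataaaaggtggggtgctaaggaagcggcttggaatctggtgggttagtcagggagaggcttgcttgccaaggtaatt
Vav1 promoter (chr17:57278850-57279099): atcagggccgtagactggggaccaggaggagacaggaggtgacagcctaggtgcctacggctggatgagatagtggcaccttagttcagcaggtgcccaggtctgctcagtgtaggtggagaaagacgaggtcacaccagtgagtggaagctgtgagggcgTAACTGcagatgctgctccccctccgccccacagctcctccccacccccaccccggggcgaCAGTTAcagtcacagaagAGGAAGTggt
Vav1 +11.4 kb (chr17:57290340-57290639): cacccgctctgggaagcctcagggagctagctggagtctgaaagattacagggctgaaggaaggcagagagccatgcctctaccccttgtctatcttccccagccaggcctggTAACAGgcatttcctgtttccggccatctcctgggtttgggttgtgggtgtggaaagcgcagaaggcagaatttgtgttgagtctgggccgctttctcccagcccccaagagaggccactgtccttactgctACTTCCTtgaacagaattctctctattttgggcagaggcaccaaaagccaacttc
Each window holds 300 bases around the region's summit, except that of the promoter, which holds the 250 bases before the TSS. AGGAAGT occurred 1 time in each of the windows at -2.1 kb, at the promoter and at +11.4 kb, and not in the window at -3.5 kb. It was present in 19.6% of 300-base windows around the summits of all 123260 regions and in 18.2% of those listed in all 8 libraries. TAACNG occurred 2 times at the promoter and 1 time at +11.4 kb, and was present in 29.8% of the windows of all regions. The letters say only what these windows hold, and binding was not measured.

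The level of a region in a library is given as the scaled summit pileup, the number of fragments stacked at the peak's summit divided by a size factor that puts the 8 libraries on one scale. Genotypes were compared in 4 pairs, each a WT and a XistΔ/Δ library matched on cell type and on replicate number. The genes themselves were selected on the genotype contrast of these peaks (their fold and percentile at Vav1), so its values are a description without a test. Size factors ran from 0.434 to 2.26, and the XistΔ/Δ library was the deeper one in every pair. The Xist promoter had a peak in all 4 WT libraries and in 1 of the 4 XistΔ/Δ libraries, LSK- XistΔ/Δ replicate 2, where it was 173 bp wide. Of the progenitor markers, Kit was listed in all 8 libraries, and Gata1, a gene of erythroid and megakaryocytic progenitors, in 4 LSK- and 0 LSK+ libraries. The other LSK- markers separated less. Ctsg was listed in 4 LSK- libraries and 1 LSK+ library, while Klf1 (79.9 to 149.7 in LSK+ and 81.8 to 156 in LSK-), Mpo and Cebpe were listed in all 8 with overlapping levels. Of the LSK+ markers, Meis1 was higher in every LSK+ library than in any LSK- library, Hlf and Mecom were listed in all 8 with overlapping levels, and Procr was listed in 3 LSK+ and 2 LSK- libraries. The promoter of Ly6a, which encodes Sca-1, was listed in 0 LSK+ libraries and 1 LSK- library. Among lineage genes, Cd3e, Cd4, Cd8a and Ly6g were listed in none and Itgam in 5 libraries.

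Vav1 (ENSMUSG00000034116.17, chromosome 17, 57279100 to 57328031, plus strand) spans 48.9 kb and 28 exons of the annotated form with the most exons. Among the Vav1 regions listed in all 8 libraries, the one that differed most between genotypes was an intronic region 11.4 kb after the TSS (57289979 to 57291248), in intron 2 of that form, which is intron 1 of the shorter annotated forms. Its scaled summit pileup in LSK+ replicates 1 and 2 was 177 and 170.5 for WT, against 465 and 431 for XistΔ/Δ. The LSK- libraries gave 153 and 150.0 (WT) against 285 and 318 (XistΔ/Δ). Both XistΔ/Δ libraries were thus above both WT libraries in each cell type, which held for 1.2% of the 21360 regions listed in all 8 libraries. The XistΔ/Δ level was on average 2.58-fold that of WT in LSK+ and 1.99-fold in LSK- (2 pairs each), and the mean log2 difference over the 4 pairs was 1.18 ± 0.23 (SD, n = 4). Within its own list, this peak stood at percentile 88.7 to 98.6 of peak strength (−log10 p) in WT and at 99.4 or above in XistΔ/Δ, where 100 is the strongest. The mean rise was 6.09 points, beside a median rise of 8.70 points over all 21360 regions. The scale ends at 100, so a peak this high in WT had little room to rise, and the 2 rises cannot be compared.

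The next among them was a region 2.1 kb upstream of the TSS (57276584 to 57277236). It reached 98.7 and 59.9 (WT) against 149.9 and 107 (XistΔ/Δ) in LSK+. In LSK- it reached 108 and 47.5 (WT) against 182 and 104 (XistΔ/Δ). Deletion libraries were higher in 4 of 4 pairs, by 0.83 ± 0.22 on the log2 scale (SD, n = 4). The groups did not overlap in LSK+, while in LSK- WT replicate 1 lay above XistΔ/Δ replicate 2. The region was therefore not among the 1.2% of all 21360 regions with XistΔ/Δ above WT in this way in each cell type. The share with this pattern in LSK+ alone is not given here. In all 4 groups replicate 1 was the higher library here.

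The promoter itself (57278704 to 57279693), a region over the TSS and exon 1, was not listed in replicate 1 of either WT group. The WT replicates 2 had 50.7 (LSK+) and 58.2 (LSK-), from 22 and 38 fragments at the summit before scaling. XistΔ/Δ libraries had 107 and 140.0 (LSK+) and 84.2 and 137 (LSK-). Every XistΔ/Δ library listed it, and each was above both WT values. The share of all regions with this pattern is not given here. Only the replicate 2 pairs could be compared, with a mean log2 difference of 1.35 ± 0.16 (SD, n = 2). The percentile was 28.2 and 56.0 in the WT libraries and 78.8 to 90.8 in XistΔ/Δ.

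**Figure D1:**
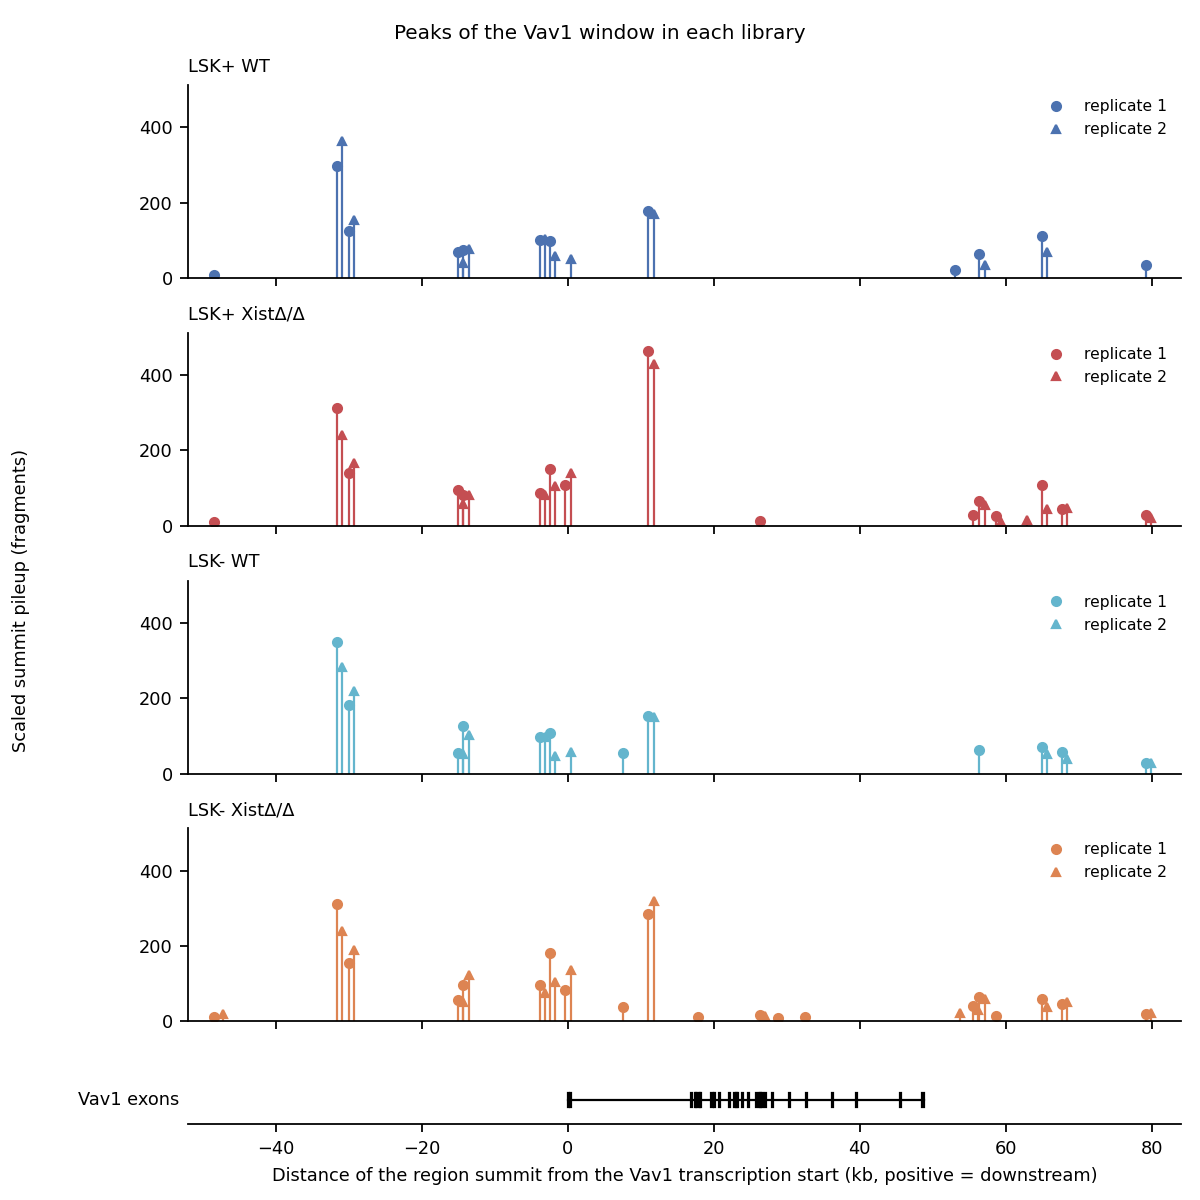
Scaled summit pileup (fragments) of each peak in the Vav1 window against the distance of its region's summit from the Vav1 TSS (kb), 1 panel per group, with replicate 1 as circles, replicate 2 as triangles and the exons below. The stems at +11.4 kb reach 465 and 431 in LSK+ XistΔ/Δ and 285 and 318 in LSK- XistΔ/Δ, against 150.0 to 177 in WT.

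The other Vav1 regions listed in every library differed less. The nearest, 3.5 kb upstream (57275144 to 57276041), had 102 and 104 (WT) against 88.4 and 81.7 (XistΔ/Δ) in LSK+, and 96.8 and 96.4 (WT) against 95.3 and 74.7 (XistΔ/Δ) in LSK-. It was lower in XistΔ/Δ in 4 of 4 pairs, by a mean of -0.24 on the log2 scale, but by scaling to the background pileup it was higher in 2 of 4 pairs with a mean of 0.01. Every XistΔ/Δ value lay below both WT values of its cell type, which held for 1.35% of all 21360 regions. A region 65.4 kb after the TSS, beyond the end of the gene toward Adgre1, was also lower in 4 of 4 pairs (-0.36, and -0.11 by the background pileup). A region 14.8 kb upstream was higher in 4 of 4 pairs, by 0.59 and 0.47 in the LSK+ pairs but by 0.05 and 0.02 in the LSK- pairs. The promoters of the neighbours Gpr108 (-31.3 kb) and Trip10 (-29.7 kb) differed by -0.23 and -0.03, with 1 and 2 of 4 pairs higher. In all, 3 of the 8 Vav1 regions listed in every library were higher in 4 of 4 pairs, against 5.04% of all such regions, and 2 were lower, against 7.11%. Their median difference was 0.01, beside -0.01 over all regions.

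Within the gene, 5 further intronic regions were weaker. That at +7.9 kb was listed in replicate 1 of both LSK- groups, with 53.8 in WT and 36.8 in XistΔ/Δ. Those at +18.1, +26.7, +29.1 and +32.9 kb were listed in XistΔ/Δ libraries alone, with 7.53 to 17.7 where listed. Listing in XistΔ/Δ alone was common, and those libraries were the deeper ones. It held for 29.2% of all regions and for 28 of the 100 members, 8 of them at Vav1, 7 at Vav2, 7 at Vav3 and 6 at Commd10. Listing in WT alone held for 3.44% of all regions and for 5 members, none at Vav1.

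The deposited fold enrichment gave a different picture of the same peaks, because it divides the summit by the local background, the fragment density that the peak caller took from the surroundings of the peak. At +11.4 kb the local background in LSK+ was 8.28 and 6.92 times the library's own background (WT) against 22.6 and 26.1 times (XistΔ/Δ). In LSK- it was 6.48 and 4.38 times (WT) against 10.8 and 11.9 times (XistΔ/Δ). The fold enrichment therefore moved little, from 14.8 and 17.3 to 15.6 and 21.8 in LSK+ and from 13.5 and 18.5 to 15.0 and 22.7 in LSK-. Its log2 difference was 0.21 at +11.4 kb, below the 0.28 by which the median region was higher on this measure. At -2.1 kb it was 0.56, above that median. The regions at -3.5 kb, -2.1 kb and the promoter shared one local background, 4.72 to 9.86 times the library's in WT and 8.44 to 15.1 times in XistΔ/Δ, so that the fold at -3.5 kb was lower in 4 of 4 pairs, by a mean of -0.48. The local background covers several kb and includes the peaks themselves, and their parts in it were not separated.

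**Figure D2:**
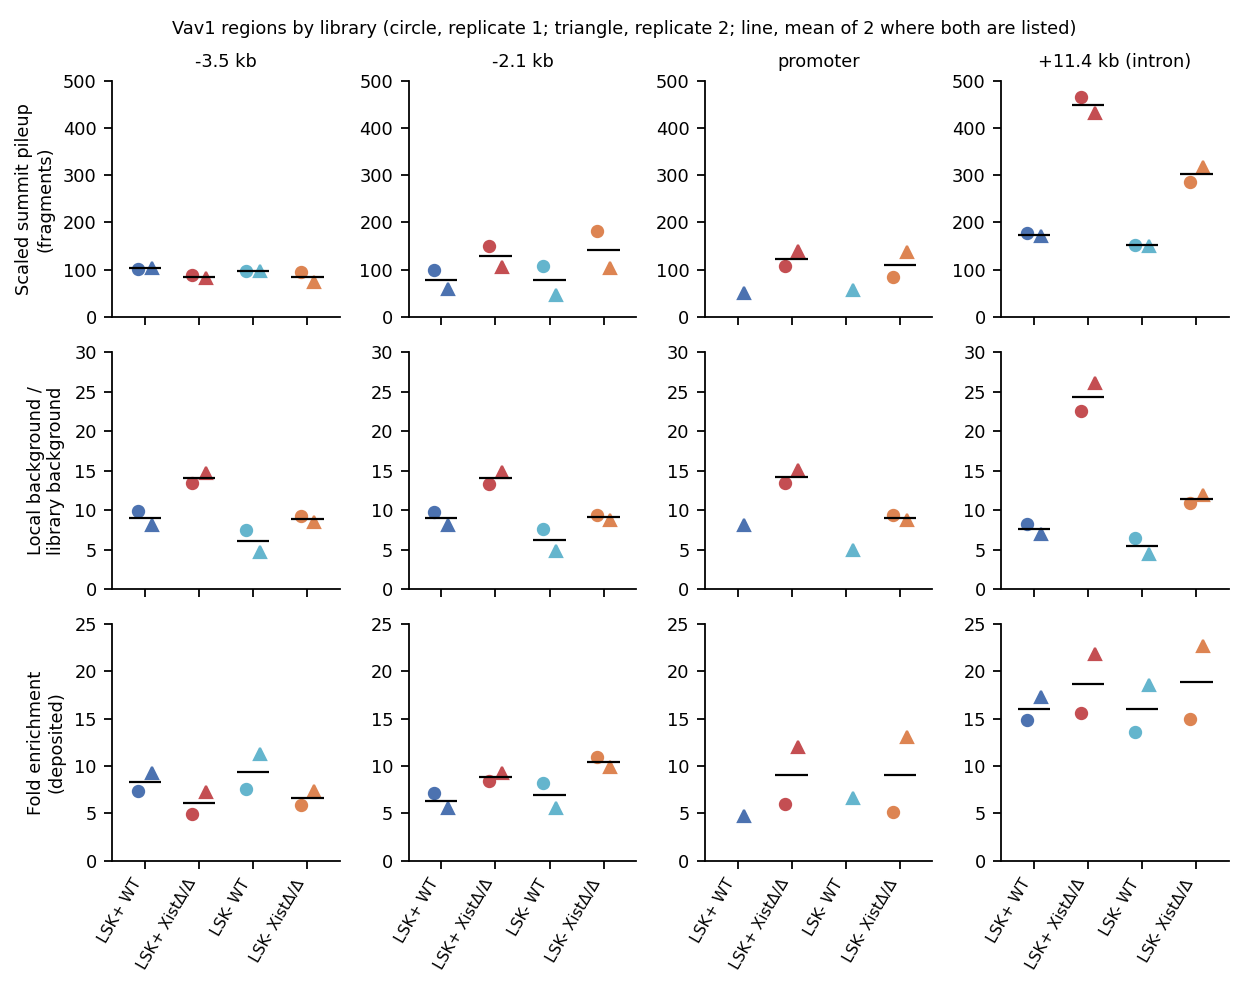
Scaled summit pileup (fragments), local background as a multiple of the library's background, and deposited fold enrichment at 4 Vav1 regions, 1 point per library (circle, replicate 1; triangle, replicate 2) with a line at the mean where both libraries listed the region. At +11.4 kb the XistΔ/Δ points stand apart from WT in the first and second rows and come close to them in the third.

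Vav2 (ENSMUSG00000009621.18, chromosome 2, 27262104 to 27427033, minus strand) encodes a family member used in many tissues. Its promoter region (27426609 to 27427387) had 55.6 and 99.1 (WT) against 56.6 and 111 (XistΔ/Δ) in LSK+, and 66.7 and 104 (WT) against 87.7 and 107 (XistΔ/Δ) in LSK-. XistΔ/Δ was higher in 4 of 4 pairs, by a mean of 0.16, which is less than the gap between the replicates of LSK+ and LSK- WT. It was the 1 of 5 Vav2 regions higher in every pair, and 0 were lower in every pair. The other 4 Vav2 regions, 2 of them in introns 1 and 11 and 2 at the promoters of the neighbours Brd3os and Brd3, differed by -0.25 to 0.13 with 1 to 3 pairs higher.

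Vav3 (ENSMUSG00000033721.16, chromosome 3, 109340653 to 109685698, plus strand) spans 345 kb. Its promoter region (109339987 to 109342357) had 69.2 and 48.4 (WT) against 92.6 and 44.6 (XistΔ/Δ) in LSK+, and 63.5 and 49.0 (WT) against 47.9 and 57.9 (XistΔ/Δ) in LSK-, so the genotypes overlapped in both cell types. None of its 4 regions was higher, and none lower, in every pair, and their differences ran from -0.12 to 0.12.

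Commd10 (ENSMUSG00000042705.9, chromosome 18, 46958816 to 47234284, plus strand) had 1 region listed in all libraries, at its promoter (46958452 to 46959536). It had 138 and 217 (WT) against 117 and 139 (XistΔ/Δ) in LSK+, and 109.8 and 171 (WT) against 128 and 129.7 (XistΔ/Δ) in LSK-. XistΔ/Δ was higher in 1 of 4 pairs and the mean difference was -0.27. Of the 3 other regions inside the annotated form with the most exons, all in intron 5, those at +34.6 and +62.0 kb were listed in 2 and 3 XistΔ/Δ libraries alone and that at +72.6 kb in 1 WT library alone, with at most 21.7 where listed. Regions at +190.4 to +260.8 kb lay within the bounds of the gene but beyond the end of that form. None was listed in more than 6 libraries, and those that could be compared differed by -0.79 to -0.03. The exact position of the transgene in Commd10 is not given in the sources used here.

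**Figure D3:**
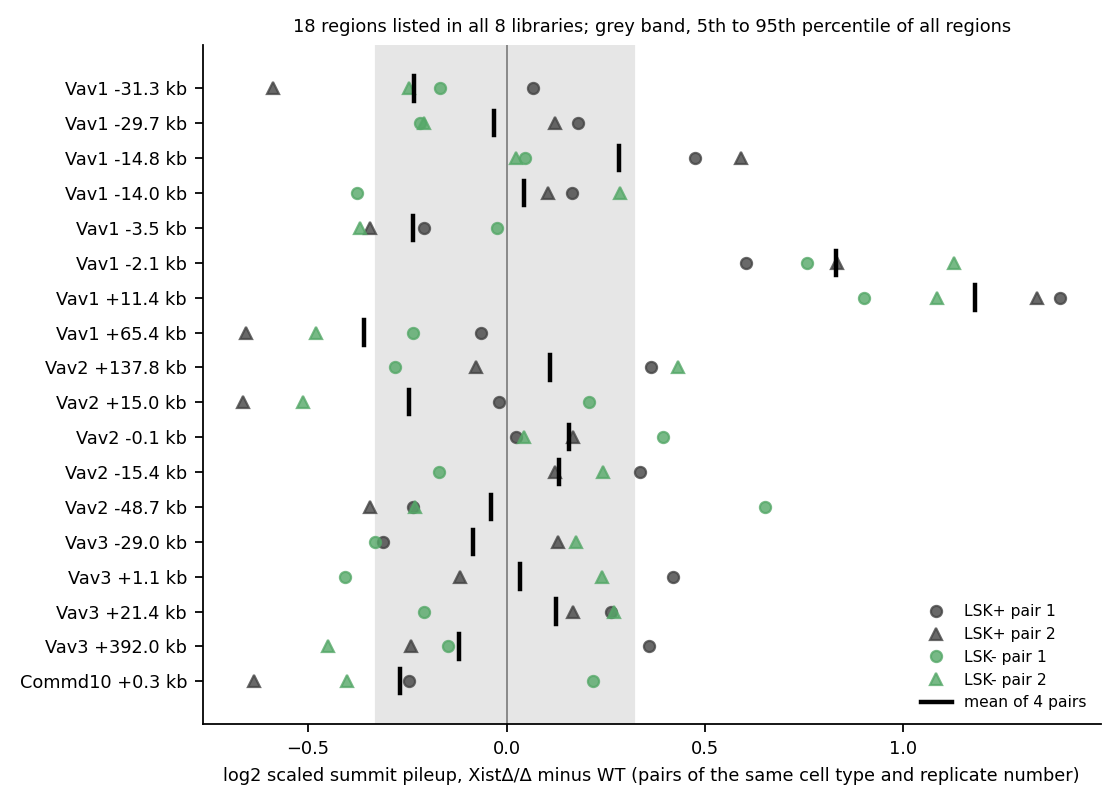
Difference of the log2 scaled summit pileup, XistΔ/Δ minus WT, in each of 4 pairs (points) and their mean (bar) for the 18 member regions listed in all 8 libraries, with the range from the 5th to the 95th percentile of all 21360 region means in grey (-0.33 to 0.32). Only the Vav1 regions at -2.1 and +11.4 kb have all 4 pairs and the mean to the right of the grey band, and the Vav1 region at +65.4 kb has its mean to the left of it.

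Ranked by this mean difference among all 21360 regions, the Vav1 regions at +11.4 and -2.1 kb came 2nd and 17th. Of the 20 regions with the highest differences, 15 were X-linked, 2 were these Vav1 regions and 3 lay elsewhere on autosomes, whereas 2.41% of all 21360 regions were X-linked. The Vav2 promoter ranked 3935th and the Commd10 promoter 19496th. Just outside the windows, the closest regions beyond 50 kb were listed in 1 to 7 libraries, and those that could be compared differed by -0.71 to 0.46, beside -0.46 to 0.22 for the outermost regions within the windows.

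The rule that chose the members did not use the comparison of LSK+ with LSK-, although earlier results of these data were known when they were chosen. This comparison was tested with limma over all 21360 regions, with Benjamini-Hochberg adjustment. Accessibility in the Vav family differed most between the cell types at Vav3. The region 392.0 kb after its TSS (109732037 to 109732904), 46.3 kb beyond the end of the gene, had 80.6 and 59.9 (WT) against 103 and 50.7 (XistΔ/Δ) in LSK+. It had 28.0 and 23.0 (WT) against 25.3 and 16.8 (XistΔ/Δ) in LSK-. All 4 LSK+ libraries lay above all 4 LSK- libraries, with means of 73.6 ± 23.4 and 23.3 ± 4.76 (SD, n = 4 each), a 3.10-fold difference (log2 1.63, SE 0.29, limma adjusted p = 0.0114). Without LSK+ WT replicate 1 the difference was 1.58 and the limma adjusted p was 0.0511.

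The region 21.4 kb into Vav3, in intron 1 (109361759 to 109362697), had 138 and 115 (WT) against 166 and 129 (XistΔ/Δ) in LSK+, and 83.9 and 78.1 (WT) against 72.7 and 94.3 (XistΔ/Δ) in LSK-. The cell types again did not overlap, at 137 ± 21.5 and 82.2 ± 9.24 (SD, n = 4 each), a 1.66-fold difference (log2 0.73, SE 0.19, limma adjusted p = 0.0445). The share of all regions in which the cell types did not overlap is not given here. It passed without LSK+ WT replicate 2 or LSK- WT replicate 1, and without any 1 of the other 6 libraries the limma adjusted p was 0.0763 to 0.157, with differences of 0.64 to 0.80. Their sequences, shown because these regions carry the test, are given with TGTGGT, the RUNX core, in capitals.
Vav3 +21.4 kb (chr3:109361921-109362220): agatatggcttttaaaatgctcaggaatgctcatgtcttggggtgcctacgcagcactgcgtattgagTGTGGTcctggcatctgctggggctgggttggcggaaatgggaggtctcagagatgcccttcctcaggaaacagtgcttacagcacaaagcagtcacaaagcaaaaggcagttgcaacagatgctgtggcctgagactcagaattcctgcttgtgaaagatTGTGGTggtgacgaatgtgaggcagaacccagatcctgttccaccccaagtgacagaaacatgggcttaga
Vav3 +392.0 kb (chr3:109732498-109732797): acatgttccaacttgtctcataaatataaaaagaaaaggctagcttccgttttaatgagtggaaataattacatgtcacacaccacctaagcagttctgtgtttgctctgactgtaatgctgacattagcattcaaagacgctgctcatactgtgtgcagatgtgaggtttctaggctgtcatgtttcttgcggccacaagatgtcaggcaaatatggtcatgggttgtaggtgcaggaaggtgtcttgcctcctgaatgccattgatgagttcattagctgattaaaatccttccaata
TGTGGT occurred 2 times at +21.4 kb, against 30.7% of the windows of all regions with at least 1 match, and none of the 6 motifs occurred at +392.0 kb.

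These 2 of 18 member regions compare with 6.18% of all regions that passed, 992 higher (4.64%) and 329 lower (1.54%) in LSK+. With the replicate number as a block, 35.1% of all regions passed and 6 of the 18 members did. The other 4 then were the Vav1 regions at +11.4 kb (0.38, limma adjusted p = 0.0345), +65.4 kb (0.53, limma adjusted p = 0.0146) and -14.0 kb (-0.50, limma adjusted p = 0.00834), and the Brd3os promoter in the Vav2 window at -15.4 kb (-0.71, limma adjusted p = 0.000474), of which the last pair were lower in LSK+. The remaining 12 regions, among them the promoters of Vav2, Vav3 and Commd10, differed by -0.34 to 0.46, with limma adjusted p from 0.254 to 0.992 without the block.

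Vav3 also held the 1 member region listed in all 4 LSK- and no LSK+ library, in intron 1 at +38.2 kb (109378474 to 109379155), with 69.9 and 41.3 (WT) against 65.1 and 35.5 (XistΔ/Δ). Such regions made up 2.12% of all. The reverse, all 4 LSK+ and no LSK- library, was seen at 1 member region, 218.6 kb after the Commd10 TSS, with 31.8 and 39.2 (WT) against 21.9 and 18.9 (XistΔ/Δ), against 0.586% of all regions. Vav3 intron 1 thus held a region higher in LSK+ and one listed in LSK- alone. At +204.4 kb, in intron 15, a weaker region was listed in 3 LSK+ libraries alone, with 20.7 to 30.6. A difference in peak height between sorted populations can reflect fewer open cells or less open chromatin per cell, which cannot be told apart in these bulk libraries.

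**Figure D4:**
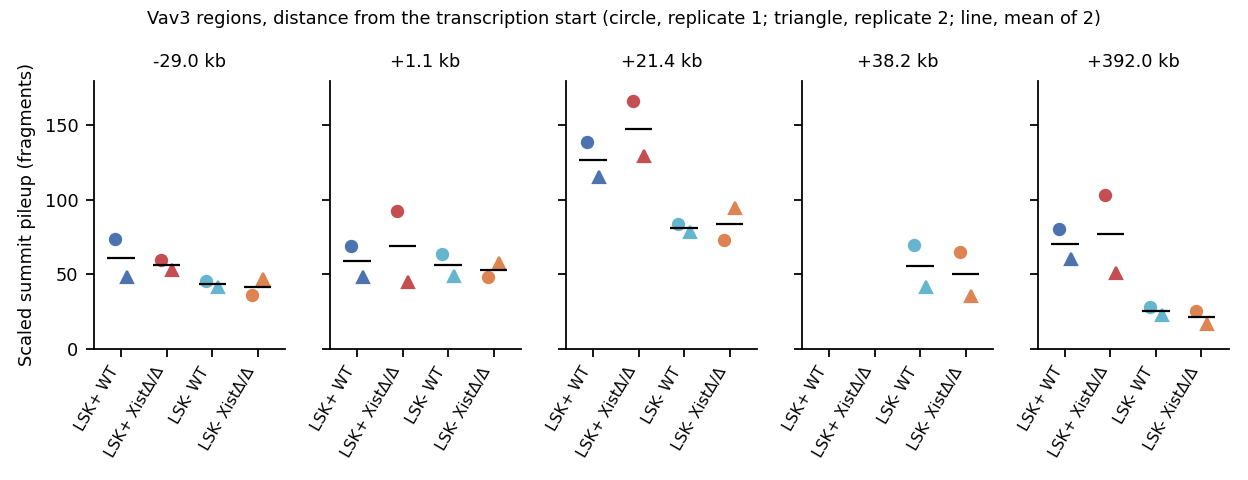
Scaled summit pileup (fragments) of 5 Vav3 regions by group, 1 point per library (circle, replicate 1; triangle, replicate 2) with a line at the mean of 2; panels give the distance from the Vav3 TSS, and a missing point means that no peak was listed. LSK+ exceeds LSK- in every library at +21.4 and +392.0 kb, the values mix at the promoter (+1.1 kb), and +38.2 kb has points in LSK- alone.

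The genes around Vav in its pathway were read at their promoters. Of 32 genes, 26 had a promoter region listed in all 8 libraries. Between cell types 2 promoters were higher and 1 lower in LSK+ (limma adjusted p under 0.05), beside 4.64% and 1.54% of all regions. Lck, a Src-family kinase of T cells, had 75.7 ± 12.7 in LSK+ and 28.7 ± 2.61 in LSK- (log2 1.39, SE 0.22, limma adjusted p = 0.00838). Lat, the membrane adaptor of T cell receptor signalling, had 132 ± 11.9 and 50.3 ± 8.83 (log2 1.41, SE 0.18, limma adjusted p = 0.00412). Rac2, the Rac GTPase of blood cells and a substrate of Vav1, had 41.1 ± 11.3 and 90.6 ± 18.1 (log2 -1.16, SE 0.21, limma adjusted p = 0.0132; SD, n = 4 in each). In pairs matched on genotype and replicate number, LSK+ was higher in 4 of 4 at Lck and at Lat and in 0 of 4 at Rac2. With the replicate block 6 promoters were higher and 5 lower in LSK+, beside 35.1% of all regions in either direction.

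Between genotypes, 0 of the 26 pathway promoters and 0 of all 21360 regions passed in limma, with 1 and 222 (1.04%) at an unadjusted p under 0.05. With the replicate block 0 and 34 (0.159%) passed. Rac2 (0.50), Grb2 (0.34), an adaptor that binds Vav1, Cblb (-0.34), a ubiquitin ligase that restrains Vav1, and Lat (0.26) had the largest log2 differences, XistΔ/Δ minus WT. Rac2 and Lat were higher in 4 of 4 pairs and Cblb in 0, while Grb2 was higher in only 2, with an SE of 0.38. In 4 of 4 pairs 5 promoters were higher and 2 lower, beside 5.04% and 7.11% of all regions, and the median was 0.02. The largest of them, 0.50, was below the differences at the Vav1 regions at -2.1 and +11.4 kb.

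The promoters whose levels followed the Vav1 promoter most closely over the 6 libraries that listed it were those of Fermt3 (Pearson's r = 0.98), which encodes an integrin activator of blood cells, 2310067P03Rik (0.98), Ifitm7 (0.98), Fgf9 (0.97) and Slfn5 (0.97). They were the top of 12677 promoters listed in all 8 libraries. These 6 libraries differ in depth, cell type and genotype at once, so the likeness is a description of these libraries.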

How the data were processed

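ATAC-seq peaks of 8 libraries (4 groups of 2) were analysed, with groups and replicate numbers read from the sample titles. Per the labels and methods, the authors aligned trimmed reads to mm10 with Bowtie2 (2.3.5.1, from the submitters' processing notes) and called peaks in each library with MACS2 (2.2.7.1). The deposited lists hold for each peak the fold enrichment over local background (a ratio), −log10 p, −log10 q (at least 2.00), a score and the summit offset. Read counts, a control library and duplicate removal are not given in the sources used here.

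Fold and p follow in MACS2 from the summit pileup, a whole number, and the local background with a pseudocount of 1, so both were solved for, and 100% of peaks matched within a relative tolerance of 3e-05. This step was tested on simulated data. Background pileups, the most common background of a list, were 0.482 to 3.87 fragments and stand for depth. Lists held 29829 to 91590 peaks on chromosomes 1 to 19 and X. Counting error alone limits values with few fragments, and only the spread between libraries is given here.

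Peaks overlapping by 1 bp were merged into regions, and each library's strongest peak by −log10 p stood for it. Pileups were divided by median-ratio size factors over the 21360 regions listed in all 8 libraries and put on a log2 scale. LSK+ and LSK- were compared in limma 3.58.1 (R 4.3.3, trend, cell type and genotype as terms), also tested on simulated data, with Benjamini-Hochberg adjustment over those regions and a threshold of 0.05. Whether libraries with the same replicate number share an animal or a batch is not given in the sources used here. Replicate 1 minus replicate 2 correlated between all group pairs at r = 0.457 to 0.782 over regions. Replicate 1 was also the deeper library in every group, and the source of the correlation was not tested. Values with the replicate number as a block therefore stand beside results they change. A promoter region had its summit within 3 kb of the TSS of the gene (GENCODE M21). Transcript positions refer to the form with the most exons. Alternatives were the other scaling, fold and percentile as measure, −log10 q of at least 5, a peak cover of 50%, windows of 20 kb, limma without the trend and each library left out.

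The members, pathway list, markers and motifs were chosen with earlier results of these data known. Named were all members, pathway genes past the threshold in either contrast or else the 4 with the largest difference, and the 5 promoters most like that of Vav1. That likeness was to span 8 libraries, but 6 list the Vav1 promoter. Some marker and pathway genes are not reported here. No column was left unmapped.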

Additional observations from a re-analysis of the deposited data

Results flagged for a closer look

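At the Trip10 promoter in the Vav1 window (chromosome 17, 57249296 to 57249706, 29.7 kb upstream of the Vav1 TSS), XistΔ/Δ was higher than WT in both LSK+ pairs, by a mean of 0.15 on the log2 scale, and lower in both LSK- pairs, by a mean of -0.21. The gap between the cell types was 0.36, and this difference was not tested. These directions are those of the scaled summit pileup. By scaling to the background pileup, by fold enrichment and by percentile, XistΔ/Δ was higher in 3 pairs. On these measures XistΔ/Δ was thus not lower in both LSK- pairs. The share of all regions with such a split is not given here. Trip10 encodes an adaptor of Cdc42 signalling and is a neighbour of Vav1, not a member of the family.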

How the results depend on the processing

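The Vav1 regions at -2.1 kb, the promoter and +11.4 kb stayed higher in XistΔ/Δ under every alternative tried. Scaling by the background pileup gave log2 differences of 1.08, 1.89 and 1.43 and moved the median of all regions from -0.01 to 0.23. On fold enrichment they were 0.56, 1.16 and 0.21, with a median of 0.28 over all regions. With peaks covering at least 50% of a region, the promoter had 1.56 in the 1 pair left, and 1 Vav1 region was higher in every pair. The region at -2.1 kb was then no longer listed in all 8 libraries, and it was higher in the 3 pairs left, by a mean of 0.74. The number of Vav1 regions higher in every pair was 3 of 8 by fold and by percentile, and 3 to 4 with a library left out. With background scaling it was 2 of 8, beside 13.5% of all regions. The number of Vav2 regions higher in every pair was 3 of 5 by fold and by percentile, and 1 to 2 with a library left out. For Vav3 it was 4 of 4 by fold, 3 of 4 by percentile and 0 to 1 with a library left out. By fold and by percentile, 39.5% and 43.5% of all regions were higher in every pair.

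Between LSK+ and LSK-, the number of member regions past the threshold was 1 without the trend, 0 with 50% cover, 6 with the replicate block and 0 to 2 with a library left out. With 50% cover, the Vav3 regions at +21.4 and +392.0 kb were no longer listed in all 8 libraries and were not tested. The Vav3 region at +21.4 kb was the one lost without the trend (limma adjusted p = 0.0598). Over all regions the counts were 7492 with the replicate block, 3810 with background scaling, 96 with 50% cover, and 292 to 1457 with a library left out, lowest without LSK- XistΔ/Δ replicate 1. With the replicate block 11 pathway promoters passed between cell types and 34 regions between genotypes. The causes were not tested. Shallow WT libraries (LSK+ WT replicate 2 has 29829 peaks) limit which weak regions are listed.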
